A study of Mus musculus with 10 samples.

Results

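The 39 genes described here encode the Toll-like and interleukin-1 receptor pathway, from the receptors and their co-receptors through the adaptors and kinases to the NF-κB and IRF transcription factors. They were taken from a list of pathway genes, drawn up with earlier results of these data known, and found by the gene symbol of the array platform's annotation. No measured value enters the rule itself. A probe was listed for 31 of the 39, and 13 were measured, meaning that both arrays of at least 3 mouse pairs gave a value. Over the whole series 4299 genes were measured.

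Toll-like receptors bind microbial products and some products of damaged tissue, and interleukin-1 family receptors bind cytokines. Both kinds of receptor carry the same cytoplasmic domain, through which ligand binding recruits the adaptor MyD88. MyD88 brings in the IRAK kinases and TRAF6, which lead through TAK1 and the IκB kinase complex to the release of NF-κB. Toll-like receptor 3 signals without MyD88, and Toll-like receptor 4 can use either MyD88 or the adaptor TRIF. In the atherosclerotic vessel, macrophages, endothelium and smooth muscle all express parts of this pathway.

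The series compared aortic arch from mice null for both ApoE and MyD88 (double-null) with aortic arch from mice null for ApoE alone (apoE-null). All mice lacked apolipoprotein E, which raises plasma cholesterol and causes atherosclerotic plaques. A high fat diet of 8 weeks is stated for 8 of the 10 two-colour arrays, and the mice on the 2 other arrays also appear on arrays with that statement. The 2 genotypes shared each array, and 5 pairs of mice were run with the dyes both ways, so n is the number of pairs. Both mice were female in pair 1 and male in pairs 2 to 4. In pair 5 the double-null mouse was male and the apoE-null mouse female. The sources used here do not give age, strain background, the disrupted part of each gene or the tissue specificity of the deletions. In pair 1 the mouse numbers of the genotypes are exchanged between its 2 arrays, and the genotype labels were used. All values below are log2 ratios of double-null over apoE-null, with the sign turned from the deposited direction, so that a value below 0 means less transcript in double-null aorta. Arrays gave between 4581 and 7057 values for 13872 probes. In whole vessel, fewer cells of a type and less RNA per cell cannot be told apart. The arch gave values for 6 of 7 smooth muscle markers, 6 of 9 endothelial markers and 18 of 20 macrophage markers, and for 1 of 8 T cell markers.

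The promoters of the measured members with the lowest mean ratios, among those with a listed promoter, are shown first. RefSeq's promoter table (build GRCm38.p6) held 9 of the 13 measured members. It lacked Ly96, whose mean ratio of -0.50 was the lowest after that of Myd88. Those lowest in mean ratio among the 9 were Myd88, Tlr2 and Cd180. Each run covers the 250 bases before the annotated transcription start, 5′ to 3′ on the gene's strand, with capitals for a match to the interferon response element (GAAA, any 2 bases, GAAA) or to the κB consensus, searched on both strands. Myd88 is at chr9:119340019-119340268 on the minus strand, Tlr2 at chr3:83841609-83841858 on the minus strand, and Cd180 at chr13:102693297-102693546 on the plus strand, the first of its 2 listed starts.
Myd88: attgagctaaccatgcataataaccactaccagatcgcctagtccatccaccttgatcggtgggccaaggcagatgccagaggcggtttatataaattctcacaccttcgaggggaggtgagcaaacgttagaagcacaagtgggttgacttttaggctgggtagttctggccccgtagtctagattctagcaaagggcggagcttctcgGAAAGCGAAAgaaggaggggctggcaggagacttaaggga
Tlr2: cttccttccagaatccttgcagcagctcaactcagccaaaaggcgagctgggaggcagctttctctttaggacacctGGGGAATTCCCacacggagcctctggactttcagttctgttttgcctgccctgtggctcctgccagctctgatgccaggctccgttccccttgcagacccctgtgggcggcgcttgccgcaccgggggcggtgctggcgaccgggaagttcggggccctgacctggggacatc
Cd180: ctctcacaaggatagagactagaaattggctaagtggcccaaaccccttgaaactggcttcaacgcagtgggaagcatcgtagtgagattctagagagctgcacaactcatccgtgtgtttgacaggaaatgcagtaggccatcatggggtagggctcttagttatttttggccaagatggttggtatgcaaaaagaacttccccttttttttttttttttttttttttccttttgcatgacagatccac

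The Myd88 window held 1 interferon response element match, which begins 40 bases before the start. That motif occurs in 2.98% of the 32851 windows of the same length in the table. The Tlr2 window held κB matches that overlap each other and begin 173 and 172 bases before the start, and 3.90% of all windows hold a κB match. Il1r1 also had a κB match, at 1 of its 2 listed starts, and Cd180, Tlr1, Tirap, Tollip, Irak1 and Irf3 had neither motif. The core of the PU.1 site (GAGGAA), present in 23.3% of all windows, was in none of the 3 windows shown. A match of letters is a description of the sequence and not a measured binding site.

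How many of these genes could be read at all differed by role. Of 15 receptors, 13 had a probe and 5 were measured. Of 5 adaptors, 3 had a probe and all 3 were measured. Among the 10 kinases and their partners 7 had a probe and 3 were measured. The co-receptors and ligand transfer proteins, 3 in all, each had a probe, and 1 was measured. Among the 6 transcription factors and IκB 5 had a probe and 1 was measured. The share of genes with a probe that were measured, 41.9%, lay close to the 38.6% of all genes. No array gave a value for 10 members, the receptors Tlr5, Tlr6, Tlr9, Il18r1 and Sigirr, the lipopolysaccharide-binding protein Lbp, the kinases Irak3 and Map3k7, the NF-κB inhibitor Nfkbib and the transcription factor Irf5. Tlr7, Il1rl1, Ticam1, Ticam2, Irak2, Irak4, Chuk and Nfkb1 were not analysed here, because no probe was listed under their symbols. Why a cell is blank is not stated, so a blank was not read as absence of the transcript.

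Blank cells were unevenly spread over the dye orientations. The member probes gave 80 values with double-null RNA in channel 1 and 61 with it in channel 2, and all probes gave 32041 and 25342. Cd14, the co-receptor that passes lipopolysaccharide to the Tlr4 complex, had values on all 5 arrays of the first orientation, from -0.40 to 0.31, and on none of the second. Ikbkg, the regulatory subunit of the IκB kinase complex, had 4 values in the first orientation, 1.65, 1.41, 0.58 and 2.71 in pairs 1, 2, 4 and 5, and none in the second. Of these Ikbkg values, 3 exceeded 1.07, the highest array value of any measured member. With 1 dye orientation a genotype difference and a dye effect cannot be told apart. Nfkb2, a precursor of the NF-κB subunit p52, had 0.50, 0.31 and 0.62 in pairs 2, 4 and 5 in the first orientation and -0.05 in pair 2 in the second. Single arrays gave 0.57 for Tlr3, -0.38 for the decoy receptor Il1r2, 1.13 for the receptor subunit Il1rap, 0.33 for Traf6 and -0.997 for the NF-κB subunit Rela.

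**Figure D1:**
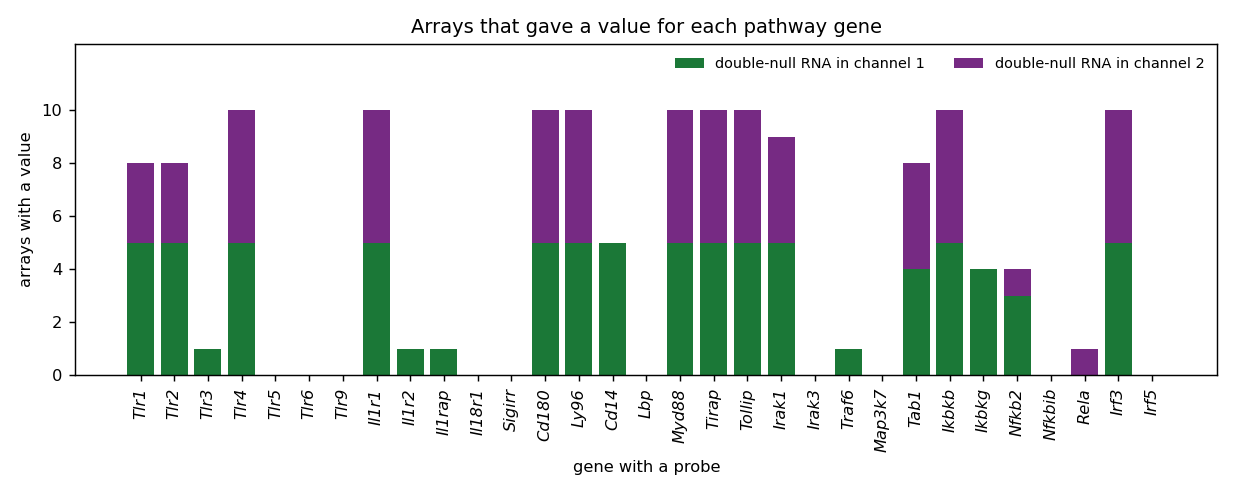
Number of arrays (vertical axis, out of 10) that gave a value for each of the 31 pathway genes with a probe, split by the channel that held double-null RNA. Cd14 and Ikbkg have 5 and 4 values, all with double-null RNA in channel 1, and 10 genes have none.

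Of the 13 measured members 1 changed. Myd88 fell and no member rose, while 12 did not pass the test. Over all 4299 genes limma called 0.814% at a Benjamini-Hochberg adjusted p under 0.05, with 0.186% lower and 0.628% higher. No higher call remained when genes with a dye effect were left out. The member called is the disrupted gene itself. At an unadjusted p under 0.05 there were 3 members (Myd88, Ly96 and Tlr2), beside 9.47% of all genes. Of the 13 members, 10 had a mean below 0 (76.9%), beside 58.3% of all genes. The median of the 13 was -0.14 and that of all genes was -0.04. Without pair 2 these medians were -0.06, over the 10 members still measured, and -0.04. Without pair 1, with all 13 still measured, they were -0.09 and -0.03. Without Myd88 the median of the remaining 12 was -0.13. In 4 members every pair value was below 0 (Tlr2, Ly96, Myd88 and Tab1), beside 7.91% of all genes. Of these, Tlr2 and Tab1 had only 3 pair values each, and Myd88 is the disrupted gene. In 1 member, Tlr1, also with 3 pair values, every pair value was above 0.

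**Figure D2:**
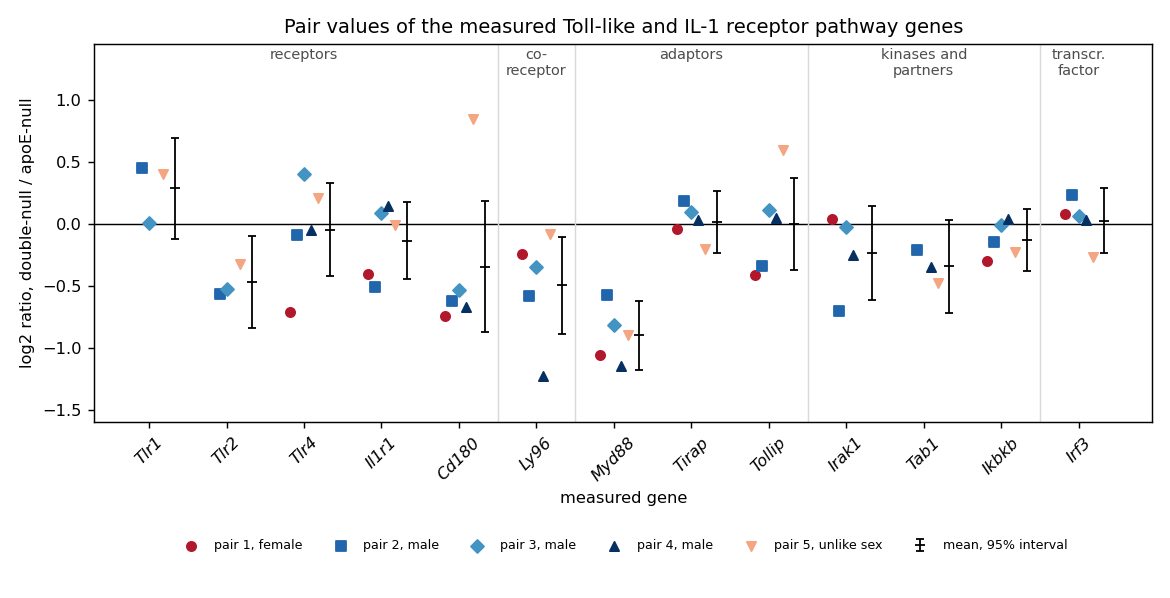
Log2 ratio of double-null over apoE-null (vertical axis) for the 13 measured genes, ordered by role. Coloured points are single mouse pairs (mean of the 2 dye orientations), and black bars are the mean with limma's 95% interval. Myd88 lies below 0 in all 5 pairs, from -1.15 to -0.57, and Cd180 stands at 0.85 in pair 5 against -0.74 to -0.54 in the others.

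Among the adaptors, Myd88 fell and both others lay near 0. Myd88 read -1.06, -0.57, -0.81, -1.15 and -0.90 in pairs 1 to 5, and it was below 0 on all 10 arrays, between -1.20 and -0.46. Both arrays of pair 1, with the exchanged mouse numbers, gave values below 0 (-0.91 and -1.20). The mean was -0.90 ± 0.22 (SD, n = 5 pairs), a 1.86-fold decrease with a 95% interval of -1.18 to -0.62 and limma's adjusted p = 0.0269. It ranked 9 of 4299 by p. The exact two-sided sign-flip permutation test over 5 pairs gave p = 0.0625, the smallest it can give. The call was lost when any 1 pair was left out, with means of -0.98 to -0.84 and adjusted p of 0.0558 (without pair 5) to 0.124 (without pair 4). Over all alternatives it was lost in 9 of 19. Partner arrays of Myd88 differed by at most 0.29, beside a median difference of 0.30 over all genes. Where the Myd88 probe lies relative to the disrupted part is not stated. Apoe, disrupted in both genotypes, had -0.52, -0.34 and -0.21 in pairs 1, 3 and 4 and did not pass (mean -0.36 ± 0.15, SD, n = 3 pairs, adjusted p = 0.531).

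Tirap links MyD88 to Toll-like receptors 2 and 4. It had pair values of -0.05, 0.18, 0.10, 0.03 and -0.21, with a mean of 0.01 ± 0.15 (SD, n = 5 pairs) and a 95% interval of -0.24 to 0.26. The interval leaves out a change of the size seen for Myd88. Tollip, a protein that binds interleukin-1 receptor complexes and IRAK1, had -0.42, -0.34, 0.11, 0.04 and 0.60. Its pairs lay on both sides of 0, with a mean of -0.00073 ± 0.41 (SD, n = 5 pairs) and a 95% interval of -0.37 to 0.37.

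Ly96 (MD-2) binds lipopolysaccharide and holds it to Tlr4. It was below 0 in all 5 pairs, at -0.25, -0.58, -0.35, -1.22 and -0.09. Of the 3192 genes measured in 5 pairs, 6.42% had every pair below 0. Pair 4 was the lowest and pair 5 the closest to 0. The Ly96 mean was -0.50 ± 0.44 (SD, n = 5 pairs), with a 95% interval of -0.89 to -0.11, and it missed the threshold (adjusted p = 0.409). Without pair 4 the mean was -0.32. On single arrays 8 of 10 values were below 0, and the partner arrays of pairs 1 and 5 had opposite signs.

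Tlr4, the receptor that Ly96 serves, had pair values of -0.71, -0.09, 0.40, -0.05 and 0.21. Its pairs fell on both sides of 0, with the female pair the lowest, and the mean was -0.05 ± 0.42 (SD, n = 5 pairs, 95% interval -0.42 to 0.33). Partner arrays of Tlr4 agreed within 0.47 in every pair, a difference smaller than the range between pairs. Leaving out pair 1 turned the mean to 0.12. A test of the female pair against the 3 male pairs gave a difference of -0.80 with an adjusted p of 0.286 by limma, from a female pair at -0.71 and a male mean of 0.09. With 1 female pair, its spread is assumed to equal that of the males. Of 3336 genes tested in this way 0.21% were called, and of 10 members none was. At an unadjusted p under 0.05 there were 540 genes.

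Cd180 (RP105) is a relative of Tlr4 on B cells and macrophages that lacks its signalling domain. It read -0.74, -0.62, -0.54 and -0.67 in the first 4 pairs. Those pair values lay close together, while pair 5, of unlike sex, lay on the other side of 0, at 0.85. Partner arrays differed more, with -1.06 and -0.43 in pair 1 and -0.31 and -0.93 in pair 2. In pair 3 they read -1.15 and 0.07, and in pair 4 -0.56 and -0.78. Both arrays of pair 5 were positive (0.66 and 1.03). The mean over all pairs was -0.35 ± 0.67 (SD, n = 5 pairs, adjusted p = 0.624 by limma). Without pair 5 it was -0.64 and still did not pass (adjusted p = 0.0767).

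Tlr2, the receptor for bacterial lipoproteins, was measured in pairs 2, 3 and 5 at -0.57, -0.52 and -0.33. All 3 pairs lay below 0, as did 7 of its 8 array values. The mean was -0.47 ± 0.13 (SD, n = 3 pairs, 95% interval -0.84 to -0.10), and it did not pass (adjusted p = 0.428). The orientations differed for Tlr2, with means of -0.03 and -0.91, although the test of a dye effect did not call it (adjusted p = 0.0827). Tlr1, which pairs with Tlr2, went the other way in the same 3 pairs, at 0.45, 0.01 and 0.40, with a mean of 0.29 ± 0.24 (SD, n = 3 pairs, adjusted p = 0.596). In pair 3 its arrays read -1.05 and 1.07, so that the pair value near 0 is the mean of opposite readings. Single Tlr1 arrays without a partner value read -1.14 in pair 1 and 0.39 in pair 4. With a pair value taken from either array, the Tlr1 mean was 0.02.

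Il1r1, the signalling receptor for interleukin-1, had pair values of -0.40, -0.51, 0.09, 0.15 and -0.01. Pairs 1 and 2 were below 0 and the others within 0.15 of it. The mean was -0.14 ± 0.30 (SD, n = 5 pairs), with a 95% interval of -0.45 to 0.17. It was 0.06 in one dye orientation and -0.33 in the other.

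The measured kinases and their partners all had means below 0, and none passed. Irak1, the kinase recruited by MyD88, had 0.04, -0.70, -0.02 and -0.25 in pairs 1 to 4, with a mean of -0.23 ± 0.34 (SD, n = 4 pairs). Pair 2 was the lowest, and without it the mean was -0.08. Tab1, the activator subunit of the TAK1 kinase, had -0.21, -0.35 and -0.47 in pairs 2, 4 and 5. Its mean was -0.34 ± 0.13 (SD, n = 3 pairs, 95% interval -0.72 to 0.03, adjusted p = 0.531), and partner arrays differed by at most 0.20. Ikbkb, the IκB kinase subunit that acts in this pathway, had -0.30, -0.15, -0.01, 0.04 and -0.23. The mean was -0.13 ± 0.14 (SD, n = 5 pairs), and the interval of -0.38 to 0.12 leaves out a decrease as large as that of Myd88. That interval rests on pair values, and partner arrays had opposite signs in pair 3 (-0.40 and 0.37) and pair 4 (0.18 and -0.10).

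Irf3, the interferon regulatory factor used by the MyD88-independent route, had pair values of 0.08, 0.23, 0.06, 0.03 and -0.27. Of its 5 pairs 4 were above 0 by at most 0.23, and the mean was 0.03 ± 0.18 (SD, n = 5 pairs, 95% interval -0.24 to 0.29). The mean hides a split by dye. With double-null RNA in channel 1 all 5 arrays were above 0, from 0.10 to 0.59, and with it in channel 2 4 of 5 were below 0, from -0.73 to 0.36. The test of a dye effect did not call Irf3 (adjusted p = 0.101).

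Over the 13 members, 5 had orientation means of unlike sign, beside 41% of all genes. None had a called dye effect, beside 4.82% of all genes. Apart from Myd88, the array values of every member reached both sides of 0.

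**Figure D3:**
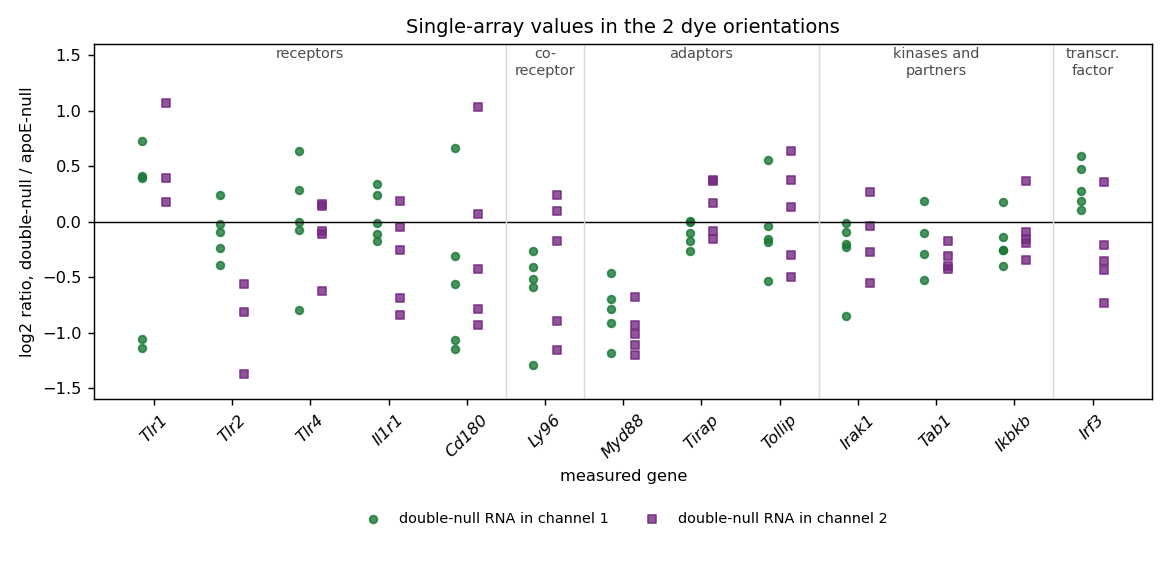
Single-array log2 ratios (vertical axis) of the 13 measured genes, with circles for arrays holding double-null RNA in channel 1 and squares for arrays holding it in channel 2. The Myd88 values are all below 0 in both orientations, and the Irf3 circles lie between 0.10 and 0.59 while 4 of its 5 squares lie below 0.

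Ly96, Cd180 and Tlr2 are expressed by macrophages, and macrophage markers were also below 0 in most pairs. Ly96, Cd180 and Tlr2 had the lowest means of the measured members after Myd88. The other Toll-like receptors measured, Tlr4 and Tlr1, had means of -0.05 and 0.29. Of 18 measured macrophage markers, 17 had means below 0, beside 58.3% of all genes, with a list median of -0.41. None passed limma's test over all genes, and 9 of the 18 had an unadjusted p under 0.05, beside 9.47% of all genes. Their medians were -1.07, -0.32, -0.67, -0.37 and 0.27 in pairs 1 to 5. In pair 1 all 18 were below 0. Other cell types also stood apart in pair 1, where Tlr4 was at -0.71. There the adipocyte markers had a median of 1.75 with 6 of 6 above 0, and the smooth muscle markers -0.52 with 6 of 6 below 0. The endothelial markers had a median of -0.58 with 4 of 6 below 0. In pair 3, where Tlr4 was at 0.40, the smooth muscle markers had a median of 0.36 with 6 of 6 above 0. Adipocyte markers were also high in pair 4, where Ly96 was lowest, with a median of 0.85. In pair 5, where Cd180 was at 0.85, 13 of 16 macrophage markers were above 0, from -0.50 to 0.70 over that list. The adipocyte markers there were below 0 in 6 of 6. Ly96 in pair 5 was -0.09, the mean of arrays at -0.41 and 0.24. Tlr2 there was -0.33 and Myd88 was -0.90, so none of these pair values crossed 0. In pair 1, where the macrophage marker median was lowest, Ly96 was at -0.25, from arrays at -0.59 and 0.09. Markers of B cells, which also express Cd180, had a median of 0.31 in pair 5 over 3 genes, which ran from -0.10 to 0.42. In the other pairs the median lay between -0.63 and 0.22, over 2 genes in pair 4. These markers did not move together, and in pair 1 they ran from -1.14 to 0.81. The part of cell content in these ratios was not tested.

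**Figure D4:**
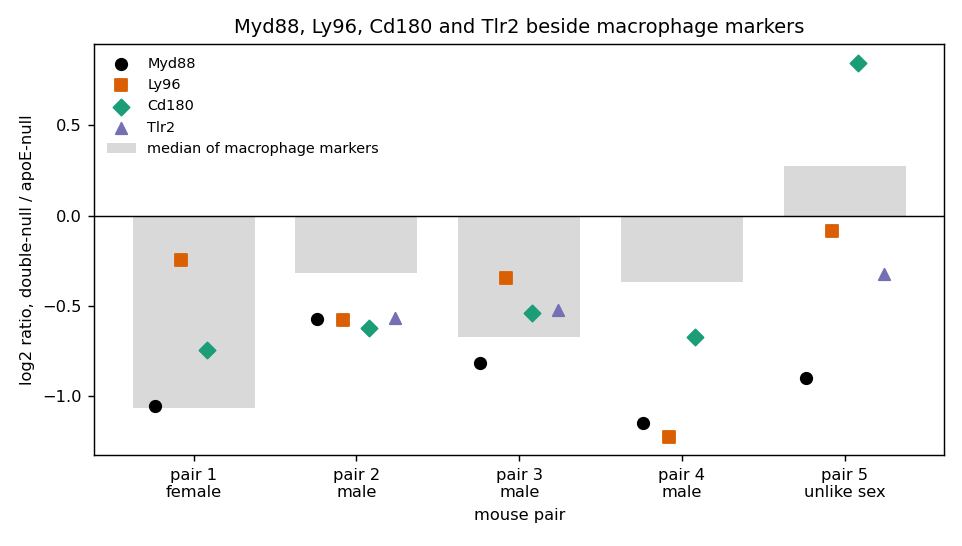
Log2 ratio (vertical axis) in each mouse pair for Myd88, Ly96, Cd180 and Tlr2, with grey bars for the median of the measured macrophage markers. The bars are below 0 in pairs 1 to 4 and at 0.27 in pair 5, where Cd180 is at 0.85 and Myd88 at -0.90.

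The rest of the pathway was read from 67 further genes, of which 35 were measured, 1 rose, none fell and 34 did not pass. The share of all genes called was 0.814%. At an unadjusted p under 0.05 there were 6 of the 35, beside 9.47% of all genes. Their median was -0.08, and 21 of the 35 (60%) were below 0, a share near the 58.3% of all genes. The gene that rose was Socs1, an inhibitor of cytokine and Toll-like receptor signalling, with 1.09, 0.89, 0.46, 0.71 and 0.88 in pairs 1 to 5 and a mean of 0.81 ± 0.24 (SD, n = 5 pairs, adjusted p = 0.0321 by limma). Its orientation means were -0.74 and 2.35, and a dye effect was called for it. Peli2, a ubiquitin ligase acting on IRAKs, was also split by dye, with orientation means of -0.23 and 0.88.

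Of the other transcription factors 8 of 9 were measured, and none passed. Relb, an NF-κB subunit, was below 0 in every pair, between -0.54 and -0.14 (mean -0.31 ± 0.16, SD, n = 5 pairs, adjusted p = 0.440). Its orientation means were -0.27 and -0.35. Fos, a subunit of AP-1, was also below 0 in every pair, between -0.71 and -0.08 (mean -0.28 ± 0.25, SD, n = 5 pairs, adjusted p = 0.531). Irf8, a factor of myeloid cells, had a mean of -0.45 ± 0.60 (SD, n = 5 pairs) and was above 0 in pair 5 alone, at 0.38. Among 9 measured feedback inhibitors, Tnip1, which binds the A20 protein, was below 0 in every pair, between -0.50 and -0.16, with orientation means of -0.53 and -0.06. Nfkbia, the IκBα inhibitor that NF-κB itself induces, had -0.94, 0.11, 0.77, 0.67 and -0.86, with pairs on both sides of 0 and a mean of -0.05 ± 0.81 (SD, n = 5 pairs).

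Among the ligands, their processing enzymes and decoys, 8 of 11 were measured, 4 below and 4 above 0, and none passed. Il18bp, the secreted protein that neutralises interleukin-18, had the lowest mean of the 35. It read -1.50, -0.66, -1.25, -1.02 and 0.13 in pairs 1 to 5, above 0 in pair 5 alone as Cd180 was, with a mean of -0.86 ± 0.63 (SD, n = 5 pairs, adjusted p = 0.195). Bgn, a matrix proteoglycan that can act as a ligand of Toll-like receptors 2 and 4, had a mean of -0.41 ± 0.56 (SD, n = 5 pairs). Of the other kinases and MAPK arms 8 of 21 were measured. Map3k8, a kinase freed by IκB kinase, was below 0 in its 4 pairs, from -0.94 to -0.08. Tbk1, the kinase of Irf3, had a mean of -0.29 ± 0.32 (SD, n = 5 pairs).

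Transcripts induced through MyD88 and NF-κB were the part of the pathway with several decreases. Of 20 such genes, chosen with earlier results of these data known, 12 were measured, 4 fell (Cxcl1, Ccl7, Lcn2 and Ccl2), none rose and 8 did not pass, beside 0.186% of all genes called lower. The 4 decreases ran from -1.67 to -1.04. Cxcl1 and Ccl2 had 5 pair values, Ccl7 had 4 and Lcn2 had 3, and Ccl2 lay close to the threshold (adjusted p = 0.0492 by limma). All 4 calls, and that of Socs1, were lost without pair 3 and without pair 4, and without pair 2 the test called 1 gene in all. Because the list was chosen in that way, its count is not independent evidence. The remaining 8 lay between -0.41 (Vcam1, the endothelial adhesion molecule) and 0.34 (Sod2, a mitochondrial superoxide dismutase).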

How the data were processed

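The authors deposited 1 log2 ratio per probe and array, apoE-null over double-null per the labels' titles, made with a GenePix scanner, GenePix Pro and GeneSpring, per the labels. How they were normalized is not stated in the sources used here. Between 49.1% and 67.0% of an array's cells were blank, intensities were not analysed here, and the number of arrays limits the precision. Signs were turned, the 2 arrays of a pair averaged, and probes of a gene averaged. Genes with 3 or more pair values were tested against 0 with limma 3.58.1 (lmFit, eBayes, two-sided, Benjamini-Hochberg over 4299 genes, R 4.3.3). Each measured member rested on 1 probe. Pairing comes from the mouse numbers in the labels, and partner arrays correlated at 0.56, 0.31, 0.04, 0.19 and 0.46 across probes in pairs 1 to 5. Mice carry separate numbers in the labels, and p-values rest on the spread of the 5 pairs. Names came from the platform annotation, with 12143 of 13872 probes holding 1 symbol, 49 several and 1680 none, and 12009 updated by identifier through RefSeq. Named genes were all measured members, Apoe, then at most 4 genes with the smallest p of each further list; Nfkbia, Vcam1, Sod2 and the values of members with fewer than 3 pairs were added after their values were seen. Members and lists were chosen with earlier results of these data known.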

Additional observations from a re-analysis of the deposited data

Results flagged for a closer look

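Cd180 in pair 5, the pair of unlike sex, stood at 0.85, far from its other pairs, which lay between -0.74 and -0.54; the gap was 0.87 of the whole range. Of 16 groups of 4 or 5 pair values looked at, 1 stood out in this way, and chance flags about 1 in 20. Partner arrays of Cd180 differed by up to 1.22, in pair 3.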

How the results depend on the processing

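Over 19 alternatives the members below 0 ran from 8 of 13 measured (without pair 1, and when arrays were centred and scaled) to 10 of 11 (without pair 3). The median of the members ran from -0.21 with channel 2 only (all genes -0.04) to -0.06 without pair 2 (10 members measured, all genes -0.04). Myd88 stayed below 0 in all of them. Its call was lost without any 1 pair (-0.98 to -0.84), with double-null RNA in channel 1 only (-0.81, adjusted p = 0.0502), with a pair value from either array (-0.90), in the male pairs only (-0.84) and with dye-effect genes left out (-0.90, adjusted p = 0.0615); the number of members called was then 0 in place of 1. Genes called, 35 in the main test (27 higher and 8 lower), numbered 0 to 17 without 1 pair (0 without pairs 3 or 4). They numbered 99 (90 higher and 9 lower) with channel 2 only and 29 (9 higher and 20 lower) with channel 1 only. There were 7 with either array, and 3 (0 higher and 3 lower) without dye-effect genes. At an unadjusted p under 0.05 there were 407. Fitting arrays with the pair as a replicate block gave 29 genes and 1 member, and adding a dye term, chosen after seeing the data, gave 63. Higher calls made up 12 of the 29. Among members that did not pass, 16 means changed sign. Tlr4 became 0.12 without pair 1 (range without 1 pair -0.16 to 0.12), 0.0084 with channel 1 only, 0.033 when arrays were centred and scaled and 0.087 in male pairs. Tollip became 0.10 without pair 1 and 0.084 without pair 2 (range -0.15 to 0.10), 0.070 with channel 2 only, 0.030 when centred and 0.090 when centred and scaled. Tirap became -0.030 without pair 2 and -0.0087 without pair 3 (range -0.030 to 0.067), and -0.11 with channel 1 only. Irf3 became -0.026 without pair 2 (range -0.026 to 0.10) and -0.28 with channel 2 only, Tlr1 -0.13 and Il1r1 0.056 with channel 1 only. The cause was not tested.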
